A study of Mus musculus with 9 samples.

Results

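The genes described are 5 fibroblast growth factor (FGF) ligands, Fgf1, Fgf3, Fgf8, Fgf10 and Fgf20, and 3 FGF receptors, Fgfr1, Fgfr2 and Fgfr3, in whole mouse cochleae at postnatal day 3. They were taken by name and found by Ensembl identifier, and are 8 of the 51912 genes listed in the HET and WT libraries. RNA-seq libraries came from 3 genotypes of the hair cell transcription factor gene Pou4f3, with 3 libraries each: Pou4f3(Δ/Δ), called HOM here, Pou4f3(Δ/+), called HET, and Pou4f3(+/+), called WT. Δ is the mutant allele, whose extent the labels do not state. The groups follow the sample titles. In all 9 samples the title and the genotype field disagree (the field reads +/+ in samples titled HET, Δ/+ in those titled HOM and Δ/Δ in those titled WT), and the protocol text names only wildtype and heterozygous mice, so every direction below depends on the titles. The HOM libraries list 1137 genes, and among the 8 ligands and receptors only Fgf8 is listed there. The other 7 were not analysed in HOM, which does not make them 0.

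FGFs are secreted proteins that, with heparan sulfate on the cell surface, bind receptor tyrosine kinases and so switch on the Ras and MAP kinase cascade, whose output includes the feedback inhibitors of the Sprouty family. In the mouse inner ear Fgf3 and Fgf10 act in otic induction and in shaping the epithelium, Fgf20 acts through Fgfr1 in the growth and differentiation of the sensory epithelium, and Fgf8 is made by inner hair cells and acts through Fgfr3 in the neighbouring pillar cells. Fgf1 is a ligand that can bind all FGF receptors. Pou4f3 is needed for hair cells to mature and survive.

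Upstream sequence is shown for the ligand gene Fgf10 and the receptor gene Fgfr2, because Fgf10 signals through a splice form of Fgfr2. Both had their lowest levels in the same libraries, as described further on, and Fgfr3 was lowest in those libraries too. A link between upstream sequence and level was not tested. Each line gives the 250 bases before the RefSeq start site, 5′ to 3′ along the gene's strand, on GRCm38.p6: chr13:118714449-118714698 on the + strand for Fgf10 and chr7:130266809-130267058 on the - strand for Fgfr2. Both windows lie inside the GENCODE M21 spans of these genes given below, which begin further upstream. The Fgf3 window and an Fgfr3 window (chr5:33722056-33722305) also lie inside the spans of their genes. Capitals mark the GC box, searched as GGGCGG and its reverse complement CCGCCC.
Fgf10: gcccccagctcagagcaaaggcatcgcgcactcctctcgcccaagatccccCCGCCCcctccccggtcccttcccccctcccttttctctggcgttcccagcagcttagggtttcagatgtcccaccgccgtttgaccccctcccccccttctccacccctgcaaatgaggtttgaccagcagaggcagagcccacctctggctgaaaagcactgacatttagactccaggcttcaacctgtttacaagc
Fgfr2: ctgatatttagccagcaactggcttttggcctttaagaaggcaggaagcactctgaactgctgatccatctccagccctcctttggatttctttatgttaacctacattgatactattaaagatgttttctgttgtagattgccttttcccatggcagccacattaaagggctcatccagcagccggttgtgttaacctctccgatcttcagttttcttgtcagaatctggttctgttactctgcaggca
The Fgf10 window held 1 GC box and 61.2% G and C, and the Fgfr2 window held no GC box and 44.0% G and C, against a mean of 53.22% over all 32851 windows of this length. A GC box stood in 32.74% of all windows. Of the 8 genes, 4 had an entry (Fgf3, Fgf10, Fgfr2 and Fgfr3, with 2 windows for Fgfr3), and Fgf1, Fgf8, Fgf20 and Fgfr1 had none. Both Fgfr3 windows held GC boxes and the Fgf3 window held none. The TATA box TATAAA and the ETS factor motif CCGGAAG, both strands searched, stood in none of the 5 windows and in 12.37% and 6.907% of all windows. The CCAAT box, searched as CCAAT on both strands, stood in 1 of the 5 windows (Fgfr3) and in 33.85% of all windows. A match is only a description of these letters.

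All values are FPKM (fragments per kilobase of gene, scaled to library depth), as calculated by the authors for each library. Depth, recovered from the steps of low FPKM values, was 14313431 to 15750499 fragments in HOM, 15546567 to 17402547 in HET and 14565406 to 17022523 in WT. The targeted gene Pou4f3 had 5.92, 1.36 and 9.39 FPKM in HOM, 24.21, 21.74 and 25.56 in HET and 25.02, 24.49 and 26.97 in WT; it was lowest in the libraries titled HOM and does not separate HET from WT. HET replicate 1 and WT replicate 3 stood apart from the other 4 libraries of these groups: the first principal component held 58.1% of the variance over 15391 expressed genes, with scores of 32.73 in HET 1 and 27.39 in WT 3 and scores from -22.36 to -4.35 in the others. All 10 hair cell markers and all 9 supporting cell markers were listed in HET and WT, with summed levels of 191.9 to 218.4 FPKM in HET and 195.0 to 249.2 in WT for hair cells and of 1225.5 to 1529.6 in HET and 1303.3 to 1490.3 in WT for supporting cells. The 5 brain markers summed to 8.5 to 10.2 FPKM in HET and 7.5 to 10 in WT, and the 5 skeletal muscle markers to 2.1 to 2.4 in HET and 1.6 to 2.5 in WT, with some of their genes at 0. The labels number the replicates and name no separate animals, so p-values measure the spread between these samples, which may be technical.

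Receptors and Fgf10 were the most abundant of the 8 genes, and Fgf1 and Fgf20 the least. In HET the order of mean FPKM was Fgfr1 (35.7 ± 2.23), Fgfr3 (27.6 ± 3.11), Fgf10 (23.7 ± 3.97), Fgfr2 (11.3 ± 1.14), Fgf8 (4.68 ± 1.26), Fgf3 (2.69 ± 0.372), Fgf1 (1.80 ± 0.215) and Fgf20 (1.17 ± 0.480) (SD, n = 3). In WT it was Fgfr1 (37.7 ± 2.08), Fgfr3 (26.2 ± 1.17), Fgf10 (24.9 ± 3.81), Fgfr2 (10.6 ± 1.83), Fgf8 (4.90 ± 1.07), Fgf3 (3.03 ± 0.488), Fgf20 (1.40 ± 0.296) and Fgf1 (0.720 ± 0.115) (SD, n = 3). The order of the first 6 genes was the same in HET and WT, and Fgf1 and Fgf20 stood in opposite order. Neighbours in the order had separate ranges over the libraries in 5 of 7 pairs in HET and 6 of 7 in WT. Fgfr3 and Fgf10 overlapped in both groups, and Fgf1 and Fgf20 overlapped in HET. Without WT replicate 3, Fgf10 stood above Fgfr3 in WT.

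**Figure D1:**
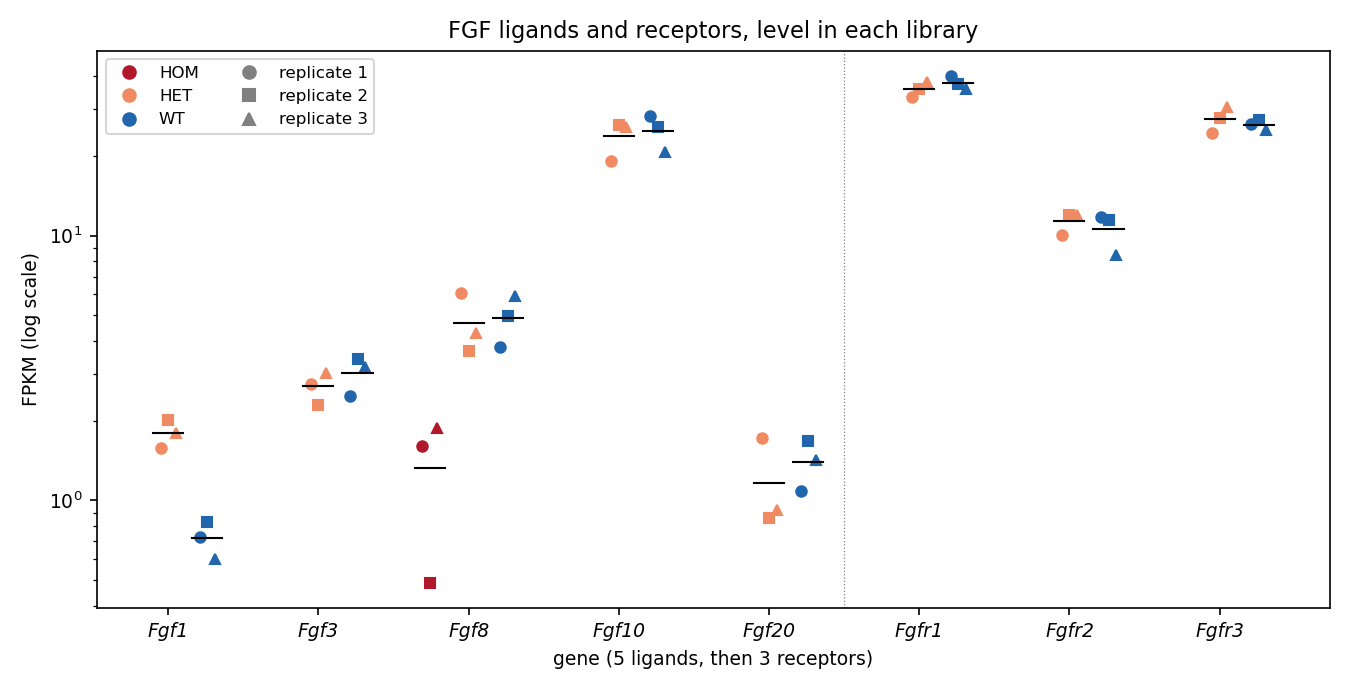
FPKM (log axis) of the 5 ligands and 3 receptors in each library, with HOM in red, HET in orange and WT in blue, the replicate number given by the marker shape and the group mean by a black bar. HOM values exist for Fgf8 alone; Fgf1 is the gene whose 3 HET libraries (1.58 to 2.01) all lie above the 3 WT libraries (0.60 to 0.83).

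Among secreted ligands, Fgf10 alone made up about as much of the FPKM as the other 17 listed together. Its share of the summed FPKM of 18 secreted ligands was 50.5 ± 5.19% in HET and 52.5 ± 5.37% in WT (SD, n = 3 each). The 5 ligands described here held 72.8 ± 0.444% in HET and 74.0 ± 1.54% in WT (exact permutation p = 0.4, two-sided). Fgf1 held 3.84 ± 0.271% in HET and 1.52 ± 0.172% in WT, with no overlap between the groups. Among Fgfr1 to Fgfr4, Fgfr1 held 36.2%, 36.4% and 35.4% of the summed receptor FPKM in HET libraries and 39.5%, 37.9% and 37.2% in WT libraries. These Fgfr1 shares did not overlap either, at 36.0 ± 0.552% in HET and 38.2 ± 1.21% in WT (SD, n = 3 each). For both shares the exact two-sided permutation p was 0.1, the smallest that 3 against 3 libraries allow. By comparison, the FPKM of 5.94% of all genes tested did not overlap between HET and WT. The FPKM of Fgfr1 itself overlapped, at 33.44 to 37.90 in HET and 35.87 to 39.98 in WT. Fgfr2 (11.4% in HET, 10.6% in WT), Fgfr3 (27.8% in HET, 26.5% in WT) and Fgfr4 (24.8% in HET, 24.6% in WT) had overlapping shares. Shares of a sum are not independent of each other.

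The comparison of HOM with WT and HET asks what is altered where both Pou4f3 alleles are mutant. Fgf8 RNA fell in HOM to 27.01% of the WT mean and 28.3% of the HET mean. Fgf8 (ENSMUSG00000025219), the ligand of inner hair cells, lies at chr19:45736798-45742915 on the - strand in GENCODE M21 on GRCm38, the build of all gene positions given here. It had 1.60, 0.49 and 1.88 FPKM in HOM, 6.08, 3.66 and 4.29 in HET and 3.79, 4.98 and 5.93 in WT. Every HOM library lay below every HET and WT library, and HOM replicate 2 was the lowest of the 9. These levels rest on about 31, 10 and 40 fragments in HOM, 134, 86 and 90 in HET and 87, 98 and 121 in WT, and the counting interval (95%, counting error only) of the HOM level was 21.09% to 34.96% of WT and 21.96% to 36.39% of HET. Tested with limma on log2(FPKM + 1) over the listed genes, Fgf8 changed by -1.38 in HOM against WT (SE 0.27, 95% interval -2.04 to -0.73, adjusted p = 0.00782), as 93.1% of the listed genes were called, with an exact two-sided permutation p of 0.1, the smallest possible. Against HET it changed by -1.32 (SE 0.28, 95% interval -2.0 to -0.65, limma adjusted p = 0.0139; exact p = 0.1), where 44.5% of the listed genes were called. Both comparisons share the HOM libraries. Without HET replicate 3 the call against HET was lost (-1.36, limma adjusted p = 0.0576). In whole tissue, fewer cells of a type and less RNA per cell cannot be told apart.

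The listed HOM genes had been chosen on their difference from WT, and this limits what the test of Fgf8 adds. The HOM and WT libraries did not overlap in 100% of the 1109 listed genes tested (69.1% lower in HOM). The calls in HOM against WT were 65.4% lower and 27.7% higher, with a median change of -0.22. In HOM against HET, 36.3% of 1090 genes were called lower, 61.9% did not overlap (46.2% lower) and the median change was -0.16. Fgf8 ranked 71 of 1109 by the size of its change in HOM against WT. Listing itself took in 1131 of 15391 expressed genes (7.348%) and 1 of the 8 ligands and receptors (12.5%).

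The loss of Fgf8 RNA in HOM lay within the range of the hair cell markers listed there. Of 10 hair cell markers, 8 are listed in HOM, and their mean levels there ranged between 2.198% (Otof, the calcium sensor of the hair cell synapse) and 68.07% (Myo6, an unconventional myosin of hair cells) of the WT mean, with a median of 18.77%. These markers were listed on their difference from WT, as Fgf8 was, and the other markers have no HOM value. The range therefore covers selected genes only. Fgf8 kept more than 5 of the 8 markers and less than 3. Its levels in HOM replicates 1 to 3 were 32.65%, 10% and 38.37% of the WT mean. All 8 listed markers were lowest in HOM replicate 2, as Fgf8 was, and 7 of the 8 had the same order of all 3 HOM libraries. The 8 include the targeted gene Pou4f3. How many of all listed genes share this order was not counted, so the match has no background. Summed, the 8 markers had 43.19, 26.84 and 44.82 FPKM in HOM, 113.07, 126.37 and 132.65 in HET and 126.57, 122.57 and 124.56 in WT. Inner hair cell markers are represented in HOM only by Otof, at 0.87, 0.29 and 1.11 FPKM there, 30.56 to 33.26 in HET and 33.58 to 35.34 in WT. The 4 supporting cell markers listed in HOM summed to 1257.47, 1378.92 and 1253.84 FPKM there, 887.07 to 1090.99 in HET and 958.68 to 1067.51 in WT. The part of hair cell and supporting cell content in the Fgf8 result was not tested.

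**Figure D2:**
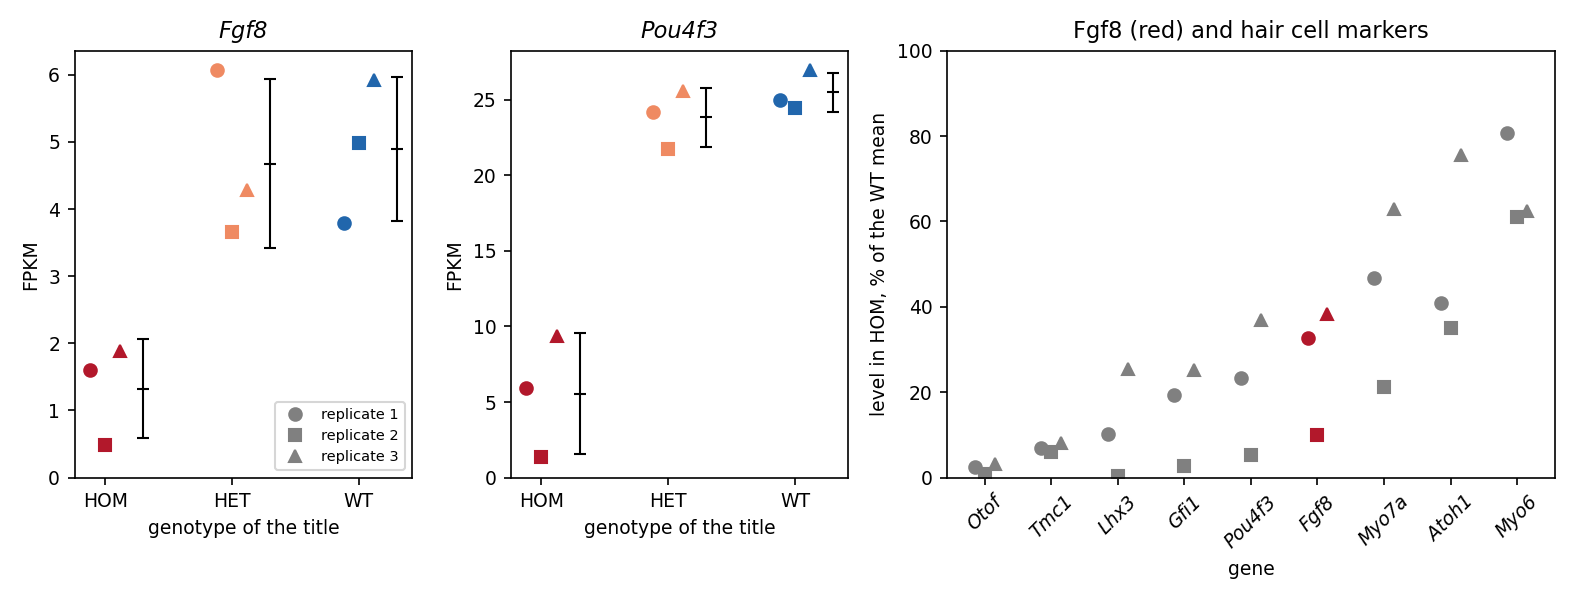
Left and middle, FPKM of Fgf8 and Pou4f3 in each library by the genotype of the title, with mean and SD (n = 3) beside the points. Right, the level of 8 hair cell markers (grey) and Fgf8 (red) in each HOM library as a percentage of the WT mean, ordered by mean; HOM replicate 2 (squares) is the lowest library for all 9 genes.

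The comparison of HET with WT asks whether 1 mutant allele alters the same genes, and here all 8 ligands and receptors could be tested. None of the 8 was called by limma, as was none of the 15391 genes tested (0%). Fgf1 was the only one of the 8 with an unadjusted limma p under 0.05, against 1.73% of all genes (266 genes; 212 by limma-voom on recovered fragments, which also called 0). That background moved with the libraries: leaving out HET 1 raised it to 1833 of 15151 genes, leaving out HET 3 lowered it to 167 of 15108, and with both HET 1 and WT 3 left out it was 2356 of 14844. Fgf1 had too few libraries at 1 FPKM or more to be tested in these 3 settings. Fgf1 was also the only one whose HET and WT libraries did not overlap, against 5.94% of all genes (2.82% higher and 3.12% lower in HET).

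Fgf1 (ENSMUSG00000036585; chr18:38838673-38929472, - strand) had 1.58, 2.01 and 1.80 FPKM in HET and 0.73, 0.83 and 0.60 in WT. All HET libraries lay above all WT libraries, and the means differed 2.495-fold. The levels rest on about 141, 191 and 153 fragments in HET and 68, 66 and 50 in WT, with a fold of 2.499 between the summed fragments per depth (95% counting interval 2.105 to 2.978). The change was 0.70 on the log2(FPKM + 1) scale (SE 0.13, 95% interval 0.39 to 1.01), a scale that understates the change of genes this low. Its unadjusted limma p was 0.00117 and its adjusted p was 0.9998. By limma p it ranked 7 of 15391 genes, and by size of change 139. The exact two-sided permutation p was 0.1. Fgf1 reached the minimum of 1 FPKM only through the HET libraries, so it was tested because it was high there.

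Where Fgf1 lies was looked at after its values had been seen. The gene is on the chromosome of the targeted locus, 3.47 Mb from Pou4f3 (chr18:42394539-42397249) and 0.237 Mb from Spry4. No other gene shares its exons. Of 31 tested genes whose bodies lie within 1 Mb, 1 was higher in HET without overlap (Gnpda1, an enzyme of amino sugar metabolism), 1 was lower (Arap3), and the median change was -0.03. Lying apart in 2 of 31 genes is close to the 5.94% of all genes. Several of the 31 are protocadherin genes of 1 cluster whose models share exons, so they are not independent. Gnpda1 had 15.78, 12.92 and 15.61 FPKM in HOM, 11.98, 10.83 and 10.76 in HET and 7.25, 6.89 and 6.27 in WT. The 3 groups did not overlap for Gnpda1, with HET between HOM and WT. Among the listed genes tested, HOM and WT did not overlap in 100% and HOM and HET in 61.9%. The share of listed genes with all 3 groups apart was not counted. Its change in HET against WT was 0.64 (SE 0.09, limma adjusted p = 0.9998, unadjusted limma p = 0.000186, exact permutation p = 0.1). Fgf1 itself is not listed in HOM.

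**Figure D3:**
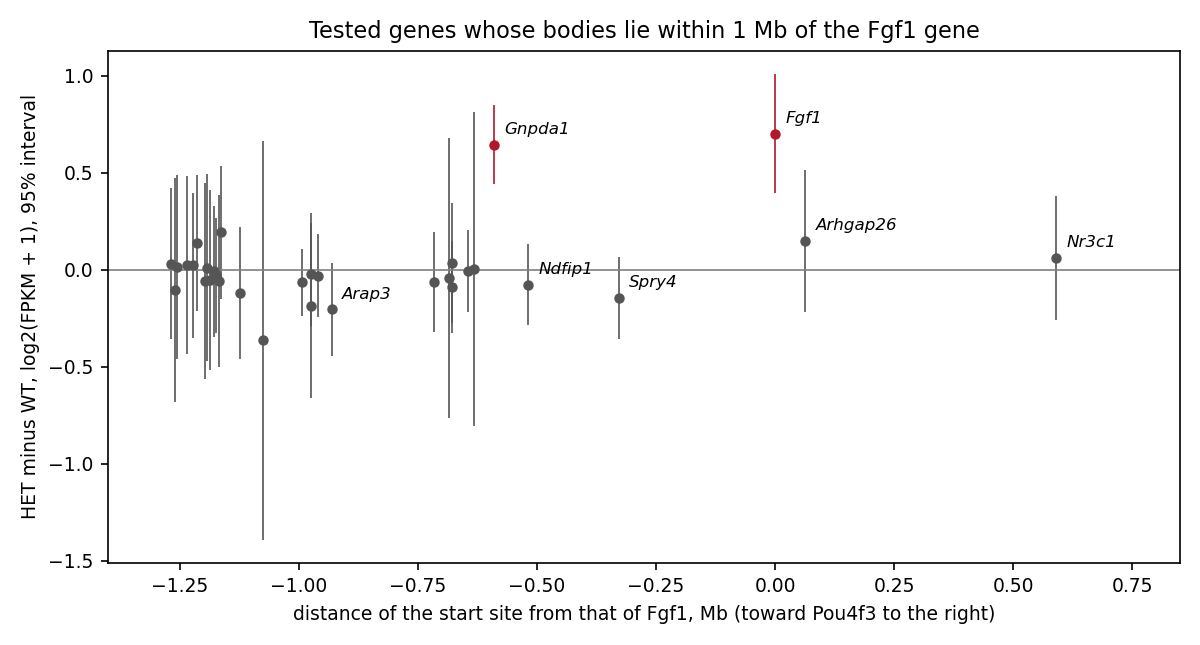
Change in HET against WT with its 95% limma interval, on the log2(FPKM + 1) scale, for Fgf1 and the 31 tested genes whose bodies lie within 1 Mb, by distance of start sites in Mb. Fgf1 (0.70) and Gnpda1 (0.64), in red, lie above the rest; most other genes lie near 0.

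The other 4 ligands overlapped between HET and WT. Fgf3 (ENSMUSG00000031074; chr7:144838083-144844436, + strand) had 2.74, 2.30 and 3.04 FPKM in HET and 2.48, 3.42 and 3.18 in WT, a difference of -0.12 (95% interval -0.44 to 0.20). Fgf20 (ENSMUSG00000031603; chr8:40279166-40308331, - strand) had 1.72, 0.86 and 0.92 FPKM in HET and 1.09, 1.68 and 1.42 in WT, a difference of -0.16 (95% interval -0.62 to 0.30). The highest Fgf20 value was in HET replicate 1 while the other 2 HET libraries were the lowest of the 6. Fgf20 shares 12.04% of its exon bases with Micu3 on the opposite strand, and the labels do not say whether reads were counted by strand. Fgf8 differed by -0.06 (95% interval -0.54 to 0.41), with HET 1 and WT 3 the highest of the 6 libraries. Fgf10 (ENSMUSG00000021732; chr13:118669791-118792115, + strand) had 19.12, 26.22 and 25.75 FPKM in HET and 28.16, 25.77 and 20.70 in WT, a difference of -0.07 (95% interval -0.46 to 0.32). For Fgf10 the lowest 2 of the 6 libraries were HET 1 and WT 3.

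The 3 receptors overlapped as well, with narrower intervals than the ligands for Fgfr1 and Fgfr3. Fgfr1 (ENSMUSG00000031565; chr8:25513654-25575718, + strand), the receptor of the early sensory epithelium, had 33.44, 35.74 and 37.90 FPKM in HET and 39.98, 37.37 and 35.87 in WT, a difference of -0.08 (95% interval -0.28 to 0.12). Fgfr3 (ENSMUSG00000054252; chr5:33721674-33737068, + strand), the receptor of pillar and Deiters cells, had 24.39, 27.83 and 30.59 FPKM in HET and 26.35, 27.29 and 24.96 in WT, a difference of 0.07 (95% interval -0.17 to 0.31). The range of Fgfr3 over the HET libraries contained that over the WT libraries. Its model shares 13.94% of its exon bases with G630022F23Rik on the opposite strand, which had 0.46 FPKM in HET and 0.35 in WT. Fgfr2 (ENSMUSG00000030849; chr7:130162451-133123350, - strand, a gene model that shares 3.04% of its exon bases with Ctbp2) had 10.02, 12.00 and 11.98 FPKM in HET and 11.75, 11.45 and 8.44 in WT, a difference of 0.10 (95% interval -0.23 to 0.44). Ctbp2 lies on the same strand, at 10.8 FPKM in HET and 10.7 in WT. All 3 receptors were lowest in HET 1 among the HET libraries and in WT 3 among the WT libraries. The sign of these small differences was not stable: leaving out 1 library turned it for Fgf8, Fgf10, Fgfr2 and Fgfr3.

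**Figure D4:**
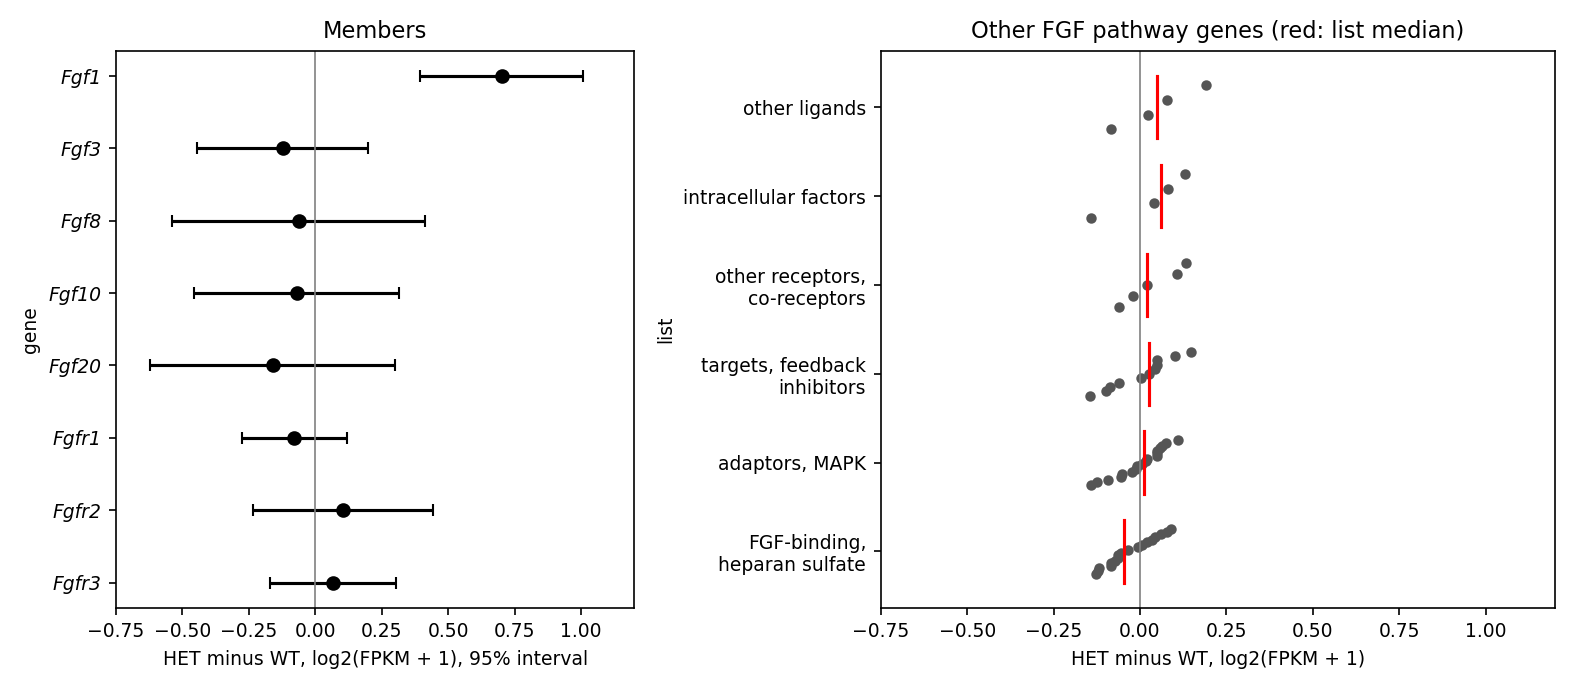
Difference of HET minus WT on the log2(FPKM + 1) scale, on the left for the 8 ligands and receptors with 95% limma intervals (n = 3 libraries each) and on the right for 60 other tested FGF pathway genes in 6 lists, each point a gene and each red bar a list median. The interval of Fgf1 (0.39 to 1.01) is the only one of the 8 that does not include 0, and the list medians lie between -0.05 and 0.06.

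Several of the ligands and receptors followed the split between HET 1 and WT 3 and the other 4 libraries of these groups. Fgf8 stood at 127.0% of its 6-library mean in HET 1 and 123.8% in WT 3, and at 76.4% to 104.0% in the others. Fgf10 stood at 78.7% in HET 1 and 85.2% in WT 3, and at 106.0% to 115.9% in the others. Fgfr2 stood at 91.6% in HET 1 and 77.1% in WT 3, and at 104.7% to 109.7% in the others. The short Fgf8 model (1350 exon bases) was thus high in the libraries where the longer Fgf10 (4601), Fgfr2 (10328) and Fgfr3 (7158) models were low. Fgf3, Fgf20 and Fgfr1 did not follow the split in this way: the short Fgf3 (2326) stood at 95.8% in HET 1 and was highest in WT 2 and WT 3, the short Fgf20 (1678) was highest in HET 1 and WT 2, and the long Fgfr1 (9875) was lowest in HET 1 and HET 2. Over all expressed genes, the 3687 genes with up to 2000 exon bases deviated from their own means by a median of 0.16 (log2) in HET 1 and 0.12 in WT 3 and by -0.08 to -0.01 in the other 4 libraries. The 4234 genes with 6000 exon bases or more deviated by -0.13 in HET 1 and -0.08 in WT 3 and by 0.02 to 0.09 in the others. Summed markers of several cell types, but not of all, were also higher in HET 1 and WT 3 than in the other 4 libraries. The 5 Schwann and satellite glia markers had 392.6 and 363.7 FPKM there and 193.9 to 308.7 in the others. The 5 pillar and Deiters cell markers had 736.5 and 627.4 there and 489.2 to 590.2 in the others. The 9 supporting cell markers had 1529.6 and 1490.3 FPKM in HET 1 and WT 3 and 1225.5 to 1307.4 in the others, and the 5 mesenchyme and fibrocyte markers had 2797.9 and 2456.8 there and 2032.8 to 2318.6 in the others. Hair cell markers had 218.4 FPKM in HET 1 and 249.2 in WT 3 and 191.9 to 215.5 in the others. The 8 hair cell markers listed in HOM did not follow, at 113.07 in HET 1 and 124.56 in WT 3 and 122.57 to 132.65 in the others. Spiral ganglion neuron, cartilage, macrophage and erythroid markers were also higher in HET 1 and WT 3 than in the others. Endothelium and pericyte markers were not, at 29.4 FPKM in HET 1 and 33.8 in WT 3 and 31.5 to 36.4 in the others. Bone markers (42.8 and 47.1, against 34.2 to 75.2) and stria vascularis markers (102.3 and 97.2, against 94.1 to 141.5) did not either. Nor did inner hair cell, brain and skeletal muscle markers. The part of exon length, of the cell type markers or of these 2 libraries in the pattern of the 8 genes was not tested.

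**Figure D5:**
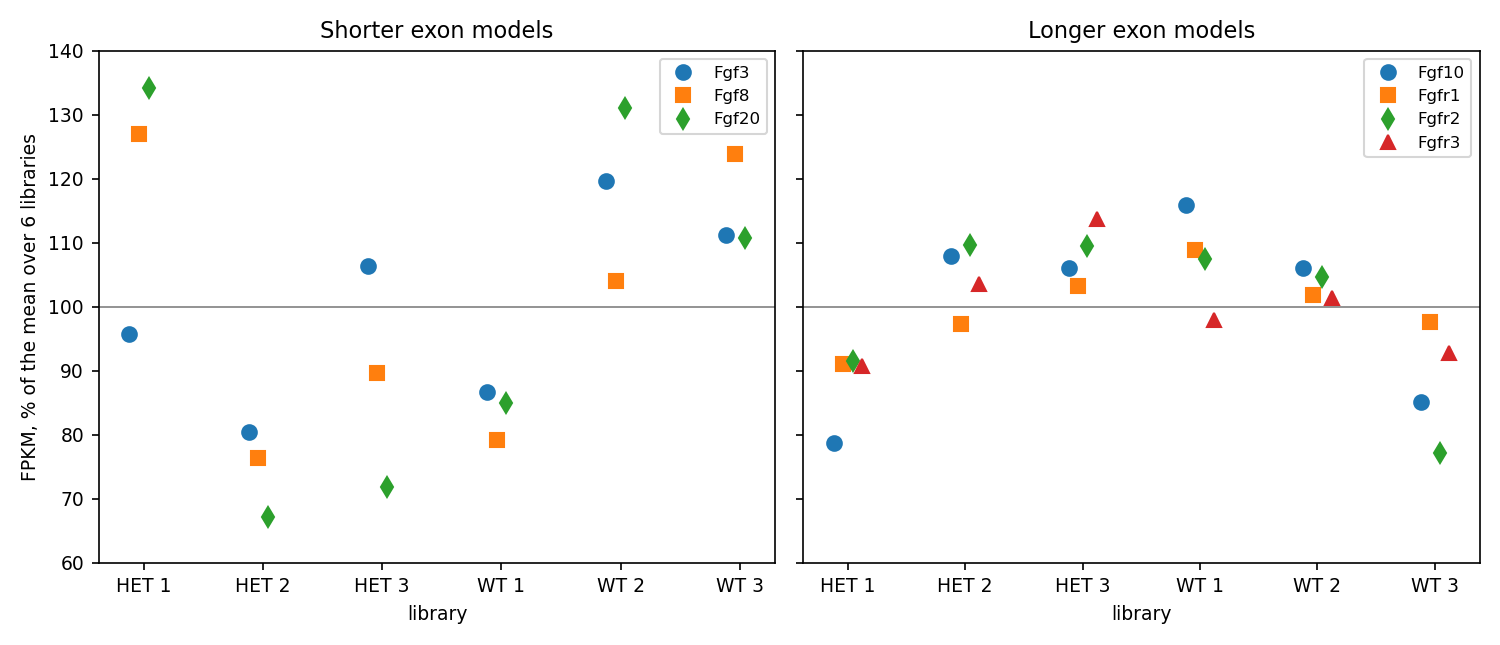
FPKM of 7 of the genes (all but Fgf1) in each HET and WT library as a percentage of their own mean over these 6 libraries, with shorter exon models on the left (Fgf3, Fgf8, Fgf20) and longer ones on the right (Fgf10, Fgfr1, Fgfr2, Fgfr3). Fgf8 is highest in HET 1 (127.0%) and WT 3 (123.8%), where Fgf10 (78.7% and 85.2%) and Fgfr2 (91.6% and 77.1%) are lowest.

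The genes with the most similar pattern over the 6 libraries were taken by Pearson r of log2(FPKM + 1) among about 9463 genes at a mean of 5 FPKM or more, as a description with no test, since the 6 libraries share the split just described. The pattern of Fgf8 was closest to Prr7 (r = 0.9973) and Gm44891 (r = 0.9959), and 298 genes had r over 0.95 with it. Fgf10 was closest to Trp53bp2 (r = 0.9963) and Ptprf (r = 0.9961), with 439 genes over 0.95. Without HET 1 and WT 3, over the 4 libraries left, r was 0.99 and 0.999 for the 2 genes of Fgf8 and 0.923 and 0.956 for those of Fgf10. It was between 0.963 and 0.996 for those of the other members except Fgfr2. These genes were picked over 6 libraries that include the 4, so a high r over the 4 is no independent check. Fgfr2 was closest to 4931406C07Rik (r = 0.9925) and Slc25a24 (r = 0.9908), which fell to r = 0.23 and 0.266 over those 4 libraries, so that the likeness rested on HET 1 and WT 3. Fgf1 had 4 such genes over 0.95, led by the processed pseudogene Gm10243 (r = 0.9698) and the pseudouridine synthase Trub2 (r = 0.9677). Fgf3 was closest to Acsf2 (r = 0.9867) and Slc35c1 (r = 0.9579), Fgf20 to Tmem138 (r = 0.9891) and Capg (r = 0.9855), Fgfr1 to Pom121 (r = 0.9909) and the receptor kinase Kit (r = 0.9888), and Fgfr3 to S100pbp (r = 0.9899) and Srek1 (r = 0.9891).

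Other genes of the pathway were described from 6 lists with 72 genes, 71 of them listed in HET and WT (all but Spry3). In HET against WT 60 were tested, none was called, 1 lay higher without overlap (Hs2st1) and 2 lay lower (Ext2 and Gpc1), against 5.94% without overlap among all genes, and the median change was 0.01, the value over all tested genes being 0.001. Of the 13 other secreted ligands, 4 were tested, with a median of 0.05. Fgf9, a ligand that signals to the mesenchyme around the otic epithelium, had 4.05 ± 0.395 FPKM in HET and 3.43 ± 0.440 in WT (change 0.19), and Fgf18 had 2.79 ± 0.236 in HET and 3.02 ± 0.312 in WT (-0.08). Among the 4 intracellular FGF homologous factors, which bind sodium channels and not FGF receptors, Fgf11 was the most abundant at 15.0 ± 1.51 FPKM in HET and 14.1 ± 1.44 in WT, followed by Fgf12 at 2.43 ± 0.414 in HET and 2.40 ± 0.854 in WT. Fgf13 (-0.14) and Fgf14 (0.13) had the largest changes of that list. The decoy receptor gene Fgfrl1, at 57.9 ± 6.94 FPKM in HET and 60.2 ± 2.30 in WT, exceeded all 3 receptors described above, and Fgfr4 stood at 24.6 ± 2.06 in HET and 24.3 ± 2.60 in WT (SD, n = 3 each). Flrt1 (0.13) and Flrt3 (0.11), transmembrane partners of FGF receptors, had the largest changes among receptors and co-receptors (5 tested, median 0.02).

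No downstream gene passed the test in HET against WT. Of 11 tested targets and feedback inhibitors the median change was 0.03, with the MAP kinase phosphatase Dusp6 at 23.3 ± 2.24 FPKM in HET and 22.6 ± 3.51 in WT and the ETS factor Etv5 at 22.8 ± 0.917 in HET and 22.1 ± 0.361 in WT. Il17rd, an inhibitor of FGF signalling, had the largest positive difference (0.15) and Spry4 the largest negative one (-0.15). Of 18 adaptor and MAP kinase genes the median change was 0.01, with Mapk3 at 48.7 ± 13.8 FPKM in HET and 52.6 ± 3.04 in WT (-0.14) and the adaptor Frs3 at -0.13. Of 18 FGF-binding and heparan sulfate genes the median change was -0.05. The heparan sulfate proteoglycans Sdc4 (102.0 ± 2.72 FPKM in HET, 104.8 ± 6.52 in WT) and Gpc1 (69.4 ± 2.12 in HET, 76.0 ± 4.64 in WT; -0.13) were the most abundant, and Sdc3 differed by -0.12. A p that misses the threshold does not show that these genes were alike.

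Of the 71 pathway genes only Spry2 and Spry4, feedback inhibitors that FGF signalling induces, are listed in HOM. That is 2 of the 60 pathway genes tested in HET against WT, beside 1131 of all 15391 genes tested there (7.348%). Spry2 had 15.92, 15.48 and 17.21 FPKM in HOM, 17.21, 18.52 and 19.74 in HET and 17.84, 18.31 and 19.18 in WT. Spry4 had 5.09, 4.45 and 3.97 FPKM in HOM, 5.17, 5.72 and 5.19 in HET and 6.53, 5.60 and 5.98 in WT. HOM lay below WT without overlap for both, as 69.1% of the listed genes did, and below HET without overlap for Spry4 alone, as 46.2% did. In HOM against WT both fell, Spry2 by 0.18 (limma adjusted p = 0.02045) and Spry4 by 0.36 (limma adjusted p = 0.01596), among listed genes of which 65.4% were called lower and whose median change was -0.22. Other scalings of the libraries took their factors from the listed genes alone, which had been chosen on their difference from WT. Such factors recentre the listed genes, so they cannot decide whether Spry2 and Spry4 fell. They moved that median to -0.09 (median-ratio) and 0.00 (upper-quartile), and both calls were lost. With median-ratio scaling the changes were -0.04 for Spry2 (limma adjusted p = 0.4773) and -0.24 for Spry4 (limma adjusted p = 0.06143). With upper-quartile scaling the sign of Spry2 turned (0.07). Leaving out HOM 1, HOM 2, WT 2 or WT 3 also ended the Spry2 call and leaving out WT 1 that of Spry4 (limma adjusted p up to 0.05768 and 0.0509). Against HET neither passed (Spry2 -0.18, limma adjusted p = 0.06877; Spry4 -0.21, limma adjusted p = 0.1047). Under the same scalings, and with the same limit, Fgf8 in HOM against WT changed by -1.29 and -1.21 and stayed past the threshold.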

How the data were processed

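RNA-seq was made from total RNA of whole cochleae with poly(A) selection or rRNA removal, per the labels' protocols, which do not say which was used. The deposited values are FPKM, calculated by the authors per library and rounded, per the file headers. The submitters' processing notes name DESeq2 and the mm8 build with no role. The aligner, counting tool and gene annotation: not given in the sources used here. Of 51912 Ensembl identifiers, 99.46% had a symbol in GENCODE M21 (GRCm38), which gave symbols, positions and exon lengths. The values are not counts, so the planned limma test was used in place of a count model.

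Pairs of groups were compared on log2(FPKM + 1) with limma (version 3.58.1, R 4.3.3), using a mean-variance trend. A gene was tested where 3 or more of the 6 libraries had at least 1 FPKM. Tests were two-sided, with Benjamini-Hochberg adjustment over all genes tested and a threshold of 0.05. The script was tested on simulated data. Single values were also given an exact permutation test over libraries.

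Depth was recovered from genes with up to 600 exon bases, taking the depth that makes their low values whole fragments. At the recovered depths, 96.6% to 100% of these values were whole within 0.1 fragments (27 to 33 values in HOM libraries, at least 2355 in the others), a check that is not independent. Recovered fragments summed to 107.98% to 108.23% of the depth in HET and WT. Intervals from fragments cover counting error only.

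The members, gene lists and tests were chosen with earlier results of these data known. Named genes were the 8 members, Pou4f3, and in each pathway list the called genes, the 2 highest in WT and the 2 with the largest change in HET against WT, with the 2 genes most like each member; Hs2st1, Ext2, Gnpda1 and Arap3 were named after their values were seen. 1 gene that this rule names is not reported here. Alternatives were another pseudocount, no filter, median-ratio and upper-quartile scaling, no trend, a replicate block, each library left out, HET 1 and WT 3 left out together, and limma-voom on recovered fragments.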

Additional observations from a re-analysis of the deposited data

How the results depend on the processing

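Fgf8 kept its direction and its call in HOM against WT under all 12 alternatives (-1.97 to -1.09, limma adjusted p 0.00317 to 0.0317), and in HOM against HET under 11 of 12 (-1.89 to -1.03, limma adjusted p 0.0120 to 0.0576). The exception was leaving out HET replicate 3 (-1.36, adjusted p = 0.0576). Leaving out 1 library gave Fgf8 changes between -1.567 and -1.092 against WT and between -1.506 and -1.03 against HET. The listed genes had been chosen on their difference from WT, and 93.1% were called in the main fit. That Fgf8 kept its call against WT therefore adds little. Fgf1 was positive in all 13 alternatives that could test it (0.65 to 1.32, limma adjusted p 0.412 to 1.0). All its HET libraries lay above all WT libraries, so leaving out a library could not turn the sign. The filtered settings could test it only with every HET library kept, so this agreement adds little. The highest values were 1.21 with a pseudocount of 0.1 and 1.32 by limma-voom. With any 1 HET library left out, or without HET 1 and WT 3 together, Fgf1 fell under the minimum; with no filter, chosen after seeing the data, leaving out HET 1, 2 or 3 gave 0.757, 0.646 and 0.698.

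The count called in HOM against WT was 1032 (307 higher, 725 lower), 628 with upper-quartile scaling (376 higher, 252 lower), 716 with median-ratio scaling (343 higher, 373 lower) and 588 to 864 without 1 library (588, 594 and 672 without WT 1, 2 and 3). Listed genes had a median change of -0.22, which became 0.00 with upper-quartile and -0.09 with median-ratio scaling. In both HOM comparisons these scalings took their factors from the listed genes alone and so recentred them. In HOM against HET the count called was 485 (89 higher, 396 lower). It was 541 with upper-quartile scaling (329 higher, 212 lower), 476 with median-ratio scaling (178 higher, 298 lower) and 116 to 431 without 1 library (142 and 116 without HET 2 and 3). The count in HET against WT was 0, and 0 to 1 without 1 library (1 without WT 1 and 1 without WT 2). Both Sprouty calls in HOM against WT fell to 0 under either scaling, and upper-quartile scaling reversed Spry2 in HOM against WT (0.069) and in HOM against HET (0.052). In HET against WT, leaving out 1 library reversed Fgf8 (-0.233 to 0.069), Fgf10 (-0.191 to 0.071), Fgfr2 (-0.035 to 0.183) and Fgfr3 (-0.007 to 0.151). Apart from the recentring by the scalings, the cause of these shifts was not tested.

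Same-numbered replicates did not deviate together throughout (r between -0.519 and 0.286), so the numbers were not taken as pairs. With the replicate block, 909 genes were called in HOM against WT, 304 in HOM against HET and 0 in HET against WT, and Fgf8 kept both calls. Depth limits Fgf8 in HOM, which rests on 10 to 40 fragments a library.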
